A study of Danio rerio with 4 samples.

Results

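Globins and other genes of red blood cells were followed in RNA of adult zebrafish brain, as a readout of the blood content of the tissue or of the output of red cells. The 10 genes were hbba1, hbba2, hbaa1, hbae1.1 and hbbe1.1, which encode globin chains, alas2 of heme synthesis, the carbonic anhydrase gene cahz, the membrane genes slc4a1a and epb41b, and gata1a, a transcription factor of the red-cell lineage. They were taken by symbol from the annotation of the array and were found on 11 of 15502 probe sets. Of the 10 genes, 7 were among the 8793 genes with a probe set of their own. The other 3 (hbba1, hbae1.1 and hbbe1.1) were present only on 4 probe sets that the annotation assigns to several globin genes, so no value belongs to them alone.

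Normal fish were kept at 28°C, and cold fish (cold-stressed in the labels) were cooled gradually and then spent 10 days at 10°C. Pooled RNA of several brains was measured on Affymetrix Zebrafish Genome Arrays, which read 1 colour, and 4 arrays were analysed, normal 1, normal 2, cold 1 and cold 2 by their titles. The sources used here do not give the age of the fish or say whether the brains were rinsed of blood. The study describes RNA sets from separate acclimation experiments, and more sets than the 2 arrays per label used here. The titles do not say which experiment an array came from. Since each array holds a pool, the spread between arrays of 1 label is that between pools. It may include differences between experiments, and some of it may be technical.

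Red blood cells of fish keep their nucleus and carry globin mRNA, so blood in a dissected brain adds globin transcripts to its RNA. Hemoglobin is assembled from alpha and beta chains, each holding a heme, and zebrafish replace embryonic chains by adult ones as they grow. Heme synthesis in red cells starts with the enzyme that alas2 encodes. The protein of slc4a1a exchanges chloride for bicarbonate across the red-cell membrane, carbonic anhydrase makes that bicarbonate, and the protein of epb41b ties the membrane to its spectrin skeleton. The factor gata1a switches on globin, heme and membrane genes. In a bulk sample, fewer red cells and less RNA per red cell cannot be told apart.

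Over the 9301 probe sets kept by a filter on low signal (a log2 mean not under the 40th percentile, equal to a signal of 74.5), arrays with the same label stood far apart. A difference of 2-fold or more separated normal 1 from normal 2 at 15.2% of them and cold 1 from cold 2 at 11.9%, but normal 2 from cold 1 at 2.8% and normal 1 from cold 2 at 7.26%. Between same-numbered arrays, cold 1 was 2-fold or more above normal 1 at 8.79% and below it at 5.13%. Cold 2 was that far above normal 2 at 2.23% and below it at 4.0%. By this measure cold 2 was no nearer to normal 1 than to normal 2. Arrays are called by their labels throughout. Whether the labels of 1 pair were exchanged cannot be told from these arrays, and an exchange would turn the direction of each cold to normal ratio in that pair and alter each difference between the labelled conditions. Where 4 signals of a gene follow each other, their order is normal 1, normal 2, cold 1 and cold 2. The median signal lay between 96.3 and 102 on the 4 arrays. The control probe sets of GAPDH had a ratio of 3′ to 5′ signal, a measure of RNA integrity, of 1.16 on normal 1, 1.25 on normal 2, 0.968 on cold 1 and 1.35 on cold 2.

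Most of the member genes, but not the embryonic globins, were high on normal 2 and cold 1 and low on normal 1 and cold 2. All 7 genes with a probe set of their own had a higher signal on both normal 2 and cold 1 than on either normal 1 or cold 2, an order found at 25.7% of kept probe sets. Within the pair of arrays numbered 1 the array labelled cold was the higher one, and within the pair numbered 2 it was the lower one. At 7 of the 8 member probe sets kept by the filter the arrays of the 2 labels overlapped, and no difference between the labelled conditions passed the test. Overlap was usual: of all kept probe sets, 9.2% had both cold arrays above both normal arrays and 6.45% had both below. Of these 8, 0 were called at an adjusted p under 0.05 from limma and 0 at an unadjusted p under 0.05, against 0.0% and 0.495% of all kept probe sets.

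**Figure D1:**
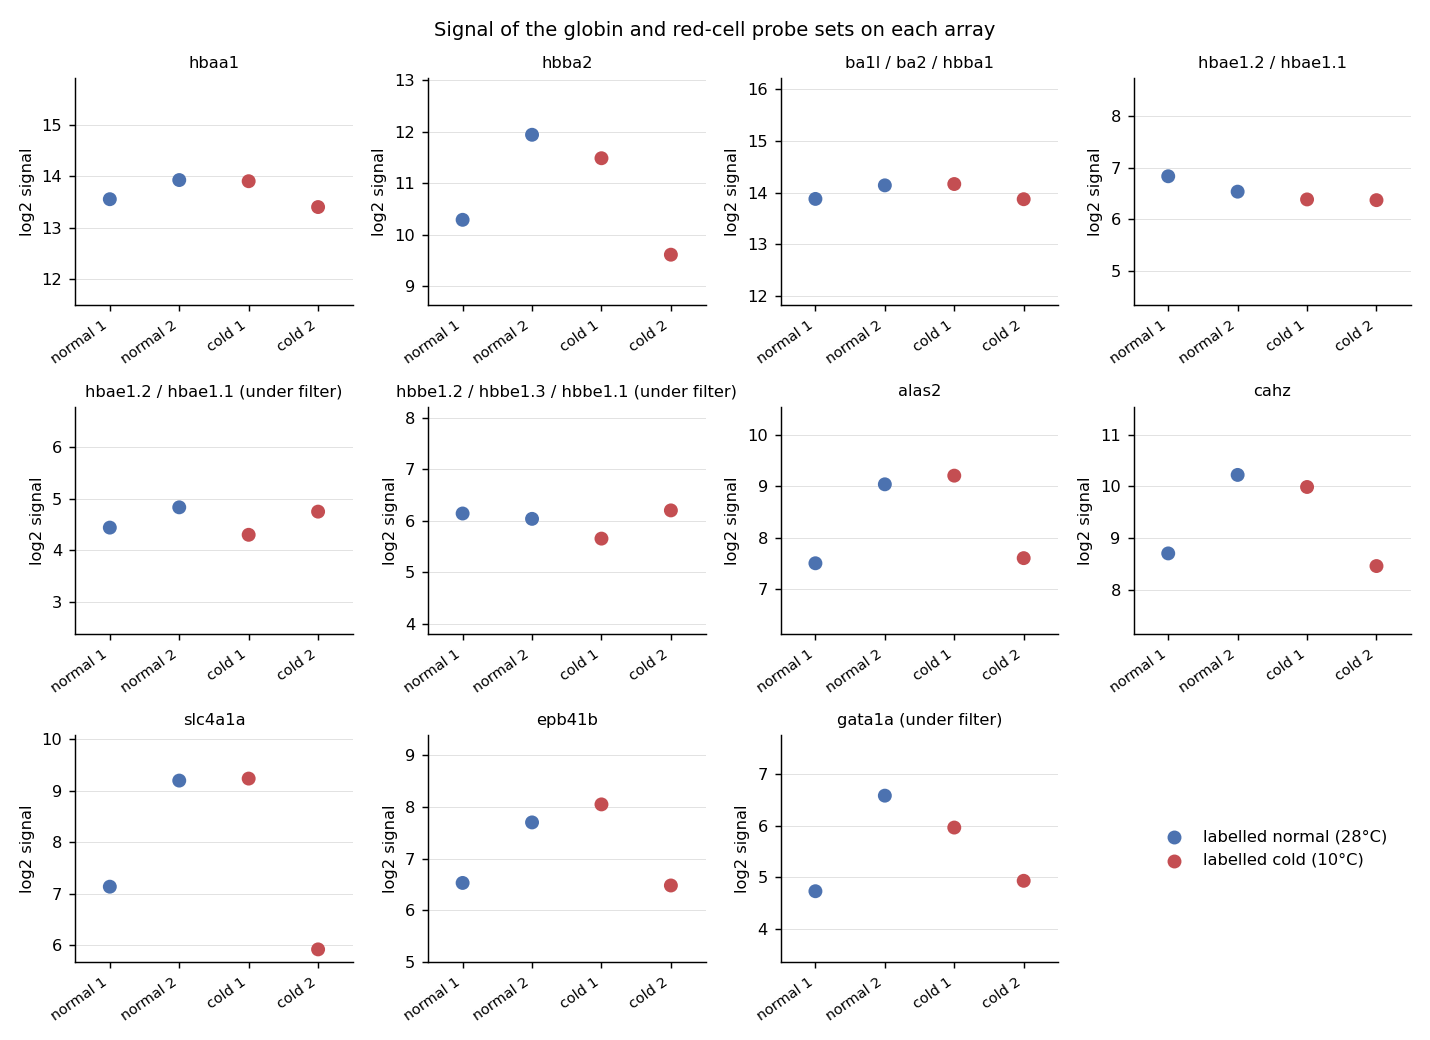
Log2 signal (vertical axis, every panel spanning the same range) of each of the 11 probe sets on the 4 arrays, 1 point per array, with normal in blue and cold in red. In the panels of hbba2, alas2, cahz, slc4a1a, epb41b and gata1a, normal 2 and cold 1 lie above normal 1 and cold 2, and the adult globins hbaa1 and ba1l / ba2 / hbba1 lie in a narrow range.

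Of the adult globins, the alpha chain gene hbaa1 had signals of 12037 on normal 1, 15571 on normal 2, 15330 on cold 1 and 10831 on cold 2. The arrays of both labels overlap, and the highest array was 1.44-fold the lowest. The log2 difference of cold against normal was -0.09 (standard error 0.20, 95% interval -0.57 to 0.39, adjusted p = 1.0 from limma). A probe set shared by the adult beta chain genes ba1l, ba2 and hbba1 had 15055, 18066, 18392 and 14996 on the same arrays. Its highest array was 1.23-fold the lowest, and its log2 difference was 0.01 (standard error 0.14, 95% interval -0.33 to 0.35, adjusted p = 1.0 from limma). Both probe sets were among the brightest of the array: hbaa1 ranked 6 to 11 of 15502 and the shared beta probe set 2 to 4, with maximum signals of 20373 to 22086 on the arrays. Saturation flags were not analysed here, so whether signal near the top of the range was compressed was not tested.

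The adult beta chain gene hbba2 had signals of 1253 on normal 1, 3930 on normal 2, 2867 on cold 1 and 784 on cold 2. Normal 2 was 3.14-fold normal 1, and cold 1 was 3.66-fold cold 2, so each label holds 1 high and 1 low array. The cold array was 2.29-fold the normal one in pair 1 and 0.199-fold in pair 2. The log2 difference between the labelled conditions was -0.57 (standard error 0.75, 95% interval -2.35 to 1.22, adjusted p = 1.0 from limma). In the current gene table the adult genes hbaa2, hbba2, ba1l, hbaa1 and hbba1 follow each other on 1 chromosome. The hbbe1, hbae1 and hbae3 genes lie beyond them, while hbbe2 and hbbe3 lie on another chromosome. Near-identical chains can share probes, so the signals of neighbouring globin genes are not fully separate measurements.

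The embryonic globins did not share this pattern and had low signals. A probe set for hbae1.1 and hbae1.2, alpha chains of the embryo, had signals of 114 on normal 1, 92.7 on normal 2, 83.5 on cold 1 and 82.7 on cold 2. Both cold arrays lay below both normal arrays, as at 6.45% of kept probe sets, and it alone of the 8 kept member probe sets had no overlap. In the other direction, 0 of the 8 had both cold arrays above both normal arrays, as at 9.2% of kept probe sets. Its log2 difference was -0.31 (standard error 0.27, 95% interval -0.95 to 0.34, adjusted p = 1.0 from limma). A further probe set for the same genes had 21.7, 28.5, 19.7 and 26.9, under the filter, and its arrays overlap. The probe set for hbbe1.1, hbbe1.2 and hbbe1.3, embryonic beta chains, had 70.5, 65.6, 50.3 and 73.5, also under the filter, with its lowest value on cold 1. Fitted without the filter, the log2 difference was -0.11 (standard error 0.25) for the former and -0.16 (standard error 0.26) for the latter, each with an adjusted p of 1.0 from limma.

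The gene alas2 encodes the red-cell form of aminolevulinate synthase, which makes the first precursor of heme. Its signal was 182 on normal 1, 526 on normal 2, 591 on cold 1 and 195 on cold 2. Cold 1 was 3.25-fold normal 1, whereas cold 2 was 0.371-fold normal 2. Normal 2 and cold 1 were close to each other (0.890-fold), as were normal 1 and cold 2 (0.933-fold). The log2 difference between the labelled conditions was 0.13 (standard error 0.71, 95% interval -1.57 to 1.84, adjusted p = 1.0 from limma).

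The gene cahz encodes a carbonic anhydrase of red cells, which hydrates carbon dioxide. It had signals of 416 on normal 1, 1195 on normal 2, 1016 on cold 1 and 351 on cold 2. The cold array was 2.44-fold the normal one in pair 1 and 0.294-fold in pair 2, and the arrays of both labels overlap. Its log2 difference was -0.24 (standard error 0.71, 95% interval -1.92 to 1.45, adjusted p = 1.0 from limma).

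The anion exchanger gene slc4a1a spanned the widest range of the members. It had signals of 141 on normal 1, 587 on normal 2, 603 on cold 1 and 60.7 on cold 2. The last was under that of the filter, so folds against it rest on a low signal. Cold 1 was 9.94-fold cold 2, and normal 2 was 4.17-fold normal 1. Against the normal array of the same number, the cold array was 4.28-fold in pair 1 and 0.103-fold in pair 2. The log2 difference of -0.59 had a standard error of 1.12 (95% interval -3.27 to 2.10, adjusted p = 1.0 from limma), so a difference of several fold in either direction lies within its interval.

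The membrane skeleton gene epb41b had signals of 92.2 on normal 1, 208 on normal 2, 265 on cold 1 and 89.1 on cold 2. In pair 1 the cold array was 2.88-fold the normal one and in pair 2 it was 0.428-fold. The log2 difference was 0.15 (standard error 0.62, 95% interval -1.32 to 1.62, adjusted p = 1.0 from limma).

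The factor gata1a lay under the filter, with signals of 26.6 on normal 1, 96.1 on normal 2, 62.6 on cold 1 and 30.6 on cold 2. Only its signal on normal 2 exceeded that of the filter, so its folds and the order of its lower arrays rest on low signals. The ratios were 2.35-fold in pair 1 and 0.319-fold in pair 2, and with 16 added to each signal the log2 ratio in pair 1 was 0.88, under 2-fold. Fitted without the filter, its log2 difference was -0.21 (standard error 0.64, 95% interval -1.76 to 1.34, adjusted p = 1.0 from limma).

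Ratios of same-numbered arrays, which rest on 1 array per condition and so have no replicate and no p-value, set these genes side by side. Of the 11 member probe sets, 9 had opposite directions in the pairs, as had 69.6% of kept probe sets. An increase in pair 1 with a decrease in pair 2, of any size, was seen for all 7 genes with a probe set of their own and for the shared adult beta probe set, as for 36.8% of kept probe sets. Of the 8 kept member probe sets, 5 (hbba2, alas2, cahz, slc4a1a and epb41b) reached 2-fold both ways, up in pair 1 and down in pair 2, as did 2.62% of all kept probe sets, with 1.21% in the reverse order. In pair 1 alone these 5 stood against 8.79% of kept probe sets with an increase of that size, and in pair 2 against 4.0% with a decrease. None of the 8 (0) was lower by 2-fold in pair 1, as were 5.13% of kept probe sets, or higher by 2-fold in pair 2, as were 2.23%. The same 5 were also 2-fold or more above normal 1 on normal 2 and above cold 2 on cold 1, as were 8.84% and 7.72% of kept probe sets. For the 6 kept probe sets of a single member, the median log2 ratio was 1.41 in pair 1 and -1.6 in pair 2, beside medians of 0.06 and 0.0 over all kept probe sets. Between arrays of 1 label, their median log2 ratio was 1.53 for normal 2 over normal 1 and 1.59 for cold 1 over cold 2, beside 0.06 and -0.02 over all kept probe sets. For these genes the ratios within a label were about as large as those between same-numbered arrays of different labels.

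**Figure D2:**
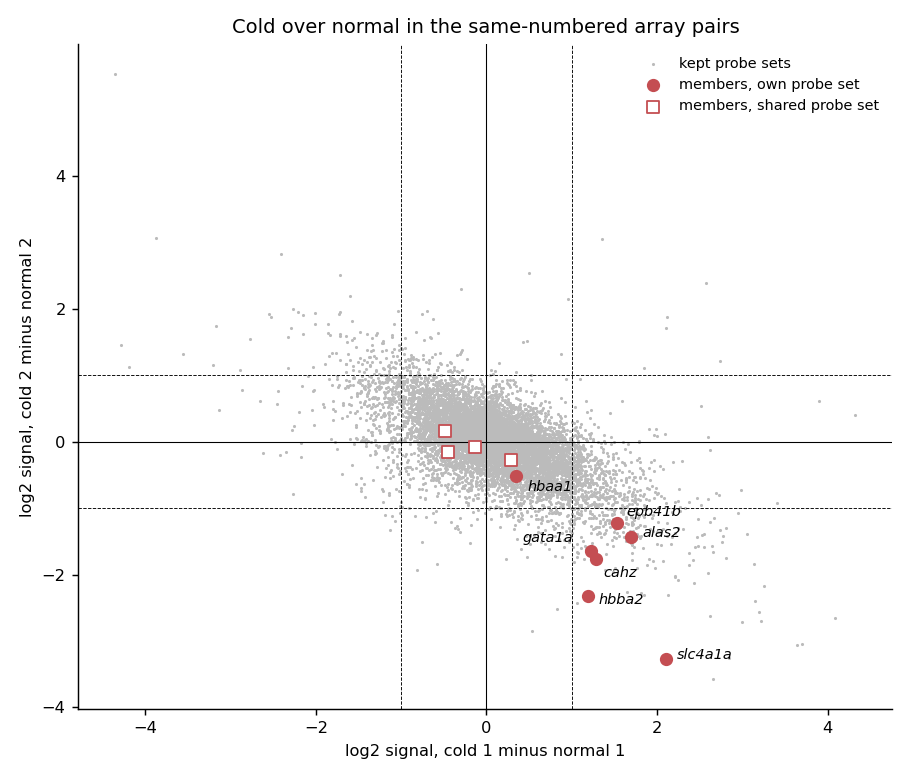
Log2 ratio of cold 1 to normal 1 (horizontal axis) against that of cold 2 to normal 2 (vertical axis) for the 9301 kept probe sets (grey) and all 11 member probe sets (red, open squares where several genes share the probe set; 3 of them under the filter). Dashed lines mark 2-fold, and hbba2, alas2, cahz, slc4a1a, epb41b and gata1a lie beyond 2-fold in the lower right corner, higher on cold 1 and lower on cold 2 (gata1a on low signals, and not beyond 2-fold in pair 1 with 16 added to each signal).

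Among the 5 members that are not globins, the ratio of normal 2 to normal 1 ran from 2.26-fold for epb41b to 4.17-fold for slc4a1a, and that of cold 1 to cold 2 from 2.04-fold for gata1a to 9.94-fold for slc4a1a. For these 5 members the high arrays differed less from each other: normal 2 was between 0.784-fold and 1.53-fold cold 1. Normal 1 was between 0.869-fold and 1.18-fold cold 2 for 4 of them and 2.32-fold for slc4a1a. Which of the high arrays was the highest differed by gene. Normal 2 was highest for hbba2, hbaa1, cahz and gata1a, and cold 1 for alas2, slc4a1a and epb41b.

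Most genes of further lists related to red cells did not share the pattern of the members beyond 2-fold. Which cells gave their signals was not tested. There were 6 lists, of further erythroid globins, heme synthesis, iron handling, membrane and cytoskeleton, transcription factors and signalling, and enzymes. They held 58 genes on the array, of which 49 passed the filter. In pair 1, 4 of the 49 had a 2-fold or larger increase and 4 a decrease of that size, beside 8.79% and 5.13% of kept probe sets. In pair 2 there were 1 and 3, beside 2.23% and 4.0%. Only ca2, a cytosolic carbonic anhydrase gene, had the pattern of the members beyond 2-fold in both pairs, as did 2.62% of kept probe sets. Its signals were 367 on normal 1, 866 on normal 2, 818 on cold 1 and 426 on cold 2. A further kept probe set of ca2 had 122, 98.5, 105 and 114 and did not share the pattern (0.862-fold in pair 1 and 1.15-fold in pair 2). The gene gpx1b, a glutathione peroxidase, had the reverse order beyond 2-fold, with 594, 129, 134 and 483, as had 1.21% of kept probe sets. Normal 2 and cold 1 were both above normal 1 and cold 2, at any size, for 16 of the 49, beside 25.7% of all kept probe sets. No gene of these lists was called by limma in the labelled comparison (0 of 49).

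Heme synthesis takes place in every cell. Most of its genes differed by under 2-fold in each pair (7 of 8 kept). At any size, 4 of the 8 had normal 2 and cold 1 above both others, beside 25.7% of kept probe sets. The gene cpox, whose enzyme makes protoporphyrinogen, had 124 on normal 1, 260 on normal 2, 286 on cold 1 and 186 on cold 2, or 2.31-fold in pair 1 and 0.717-fold in pair 2. The dehydratase gene alad, which acts after aminolevulinate synthase, had 61.6, 102, 101 and 77.0, an order like that of alas2 over a smaller range. The housekeeping synthase gene alas1 had 809, 755, 718 and 1029 and so did not follow alas2. The mitochondrial carrier gene slc25a38b had 566, 922, 900 and 859. The ferrochelatase gene fech, of the last step, was under the filter on average. The median log2 ratio of the 8 kept genes was 0.44 in pair 1 and -0.09 in pair 2.

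Of the transcription factors, lmo2, a partner of the GATA factors, had signals of 69.7 on normal 1, 151 on normal 2, 137 on cold 1 and 77.3 on cold 2, or 1.96-fold in pair 1 and 0.513-fold in pair 2. The factor klf1, which activates adult beta-globin in mammals, had 124, 196, 189 and 109. The leucine zipper gene nfe2 had 67.8, 107, 87.1 and 76.5. These 3 genes had both normal 2 and cold 1 above normal 1 and cold 2, as gata1a did. In the whole list 4 of the 14 kept genes had this order, beside 25.7% of all kept probe sets. The transcription factor gene tal1 had 82.1, 97.2, 73.7 and 104 and did not. The zinc finger gene klf6a had the reverse order, with 856, 371, 391 and 717. The median log2 ratio of the 14 kept genes was -0.01 in pair 1 and 0.16 in pair 2.

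In iron handling, the aconitase gene aco1, whose product binds iron-responsive mRNA elements, had signals of 235 on normal 1, 252 on normal 2, 388 on cold 1 and 110 on cold 2. The biliverdin reductase gene blvrb, which acts in heme breakdown, had 376, 424, 591 and 211. Both were lowest on cold 2 and highest on cold 1. The ferritin gene fthl27 had 8328, 4332, 3219 and 6389, against the order of the members, and the copper oxidase gene cp had 409, 1566, 1068 and 1221. Of the membrane list, the water channel gene aqp1a.1 had 389, 1014, 814 and 886, the adducin gene add1 had 487, 152, 198 and 176, and stomatin (stom) had 636, 825, 641 and 522. The spectrin gene sptb was under the filter, with 43.0, 61.2, 49.0 and 44.8. The median log2 ratios were 0.27 and 0.04 for the 7 kept iron genes, and 0.01 and -0.19 for the 7 kept membrane genes. For the 11 kept enzymes they were 0.01 and -0.06. Normal 2 and cold 1 were above both others for 4 of the 11 enzymes, beside 25.7% of kept probe sets. The same order was seen for 2 of the 7 iron genes and 2 of the 7 membrane genes. The ubiquitin-conjugating enzyme gene ube2h had 214, 252, 355 and 198. Its signals on normal 2 and cold 1 were above the others, over a smaller range than for most members with a probe set of their own.

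Of 3 further erythroid globins on the array, 2 were kept, and these stayed within a narrow range. Their signals were low, not far above that of the filter (74.5), so the range rests on low signals. The embryonic alpha chain gene hbae3 had signals of 95.1 on normal 1, 84.4 on normal 2, 85.5 on cold 1 and 88.2 on cold 2, and the embryonic beta chain gene hbbe2 had 89.2, 126, 106 and 106. Globins made outside red cells were also measured. The neuroglobin gene ngb, expressed in neurons, had 121, 310, 382 and 132, the order of the red-cell members, at 3.15-fold in pair 1 and 0.426-fold in pair 2. The myoglobin gene mb had 69.5, 94.4, 82.5 and 68.5.

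**Figure D3:**
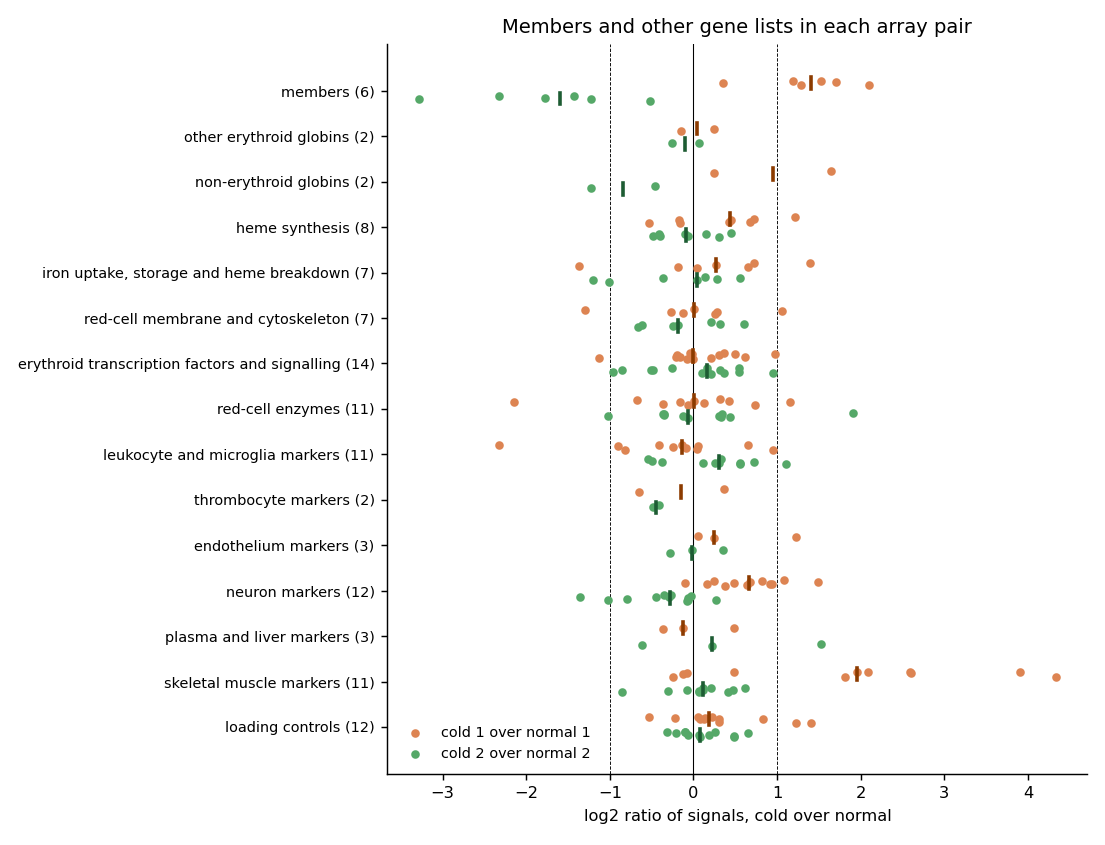
Log2 ratio of cold to normal (horizontal axis) in pair 1 (orange) and pair 2 (green) for the 6 kept probe sets of single members and for the kept genes of 14 other lists, the number of genes in brackets. Short bars are medians and dashed lines mark 2-fold. The members have medians of 1.41 and -1.6, the skeletal muscle markers 1.96 and 0.11.

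Markers of other cell types were followed beside the members. Most skeletal muscle markers were high on cold 1 alone. Of 11 kept genes, 7 had a signal there more than 2-fold that of each other array. The share of all kept probe sets with such an excess was not counted. An increase of 2-fold or more in pair 1 was seen for 7 of the 11, beside 8.79% of kept probe sets. The summed signal of the 11 was 1430 on normal 1, 1541 on normal 2, 5272 on cold 1 and 1656 on cold 2. The parvalbumin gene pvalb2 of fast muscle had 76.1, 81.2, 1527 and 108, pvalb1 had 31.8, 49.9, 475 and 76.0, and the troponin gene tnnt3b had 79.2, 93.2, 481 and 98.2. The red-cell members were high on cold 1, where these muscle genes were high, and on normal 2, where these muscle genes were low. Neuron markers were lower on normal 1 than on the other arrays in their sum (25475 on normal 1, 35570 on normal 2, 37754 on cold 1 and 30358 on cold 2). Of 12 kept genes, 2 had an increase of 2-fold or more in pair 1, beside 8.79% of kept probe sets. In pair 2, 2 had such a decrease, beside 4.0%. Normal 2 and cold 1 were both above the other arrays for 7 of the 12, beside 25.7% of kept probe sets. The median log2 ratio was 0.66 in pair 1 and -0.28 in pair 2, the directions of the members. The tubulin gene tubb5, with 645, 1613, 1813 and 630, had the order of the members beyond 2-fold in both pairs. The other named neuron genes were gad2 (1387, 2235, 2924 and 1641), of GABA synthesis, and elavl4 (1313, 1170, 1565 and 575), an RNA-binding protein gene.

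**Figure D4:**
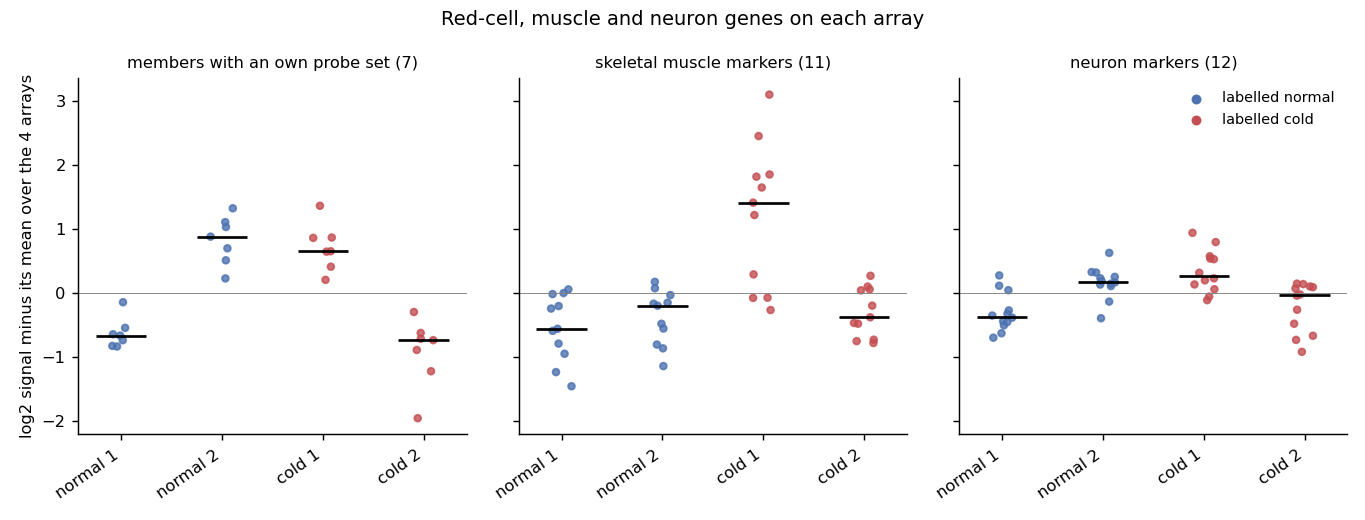
Log2 signal minus the mean of the gene over the 4 arrays (vertical axis) for the 7 member genes with a probe set of their own, 11 skeletal muscle markers and 12 neuron markers, 1 point per gene and array, bars at medians. The members are high on normal 2 and cold 1, and most muscle markers on cold 1 alone.

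In their sum, which rests mostly on the brightest genes, markers of leukocytes and microglia differed less between arrays than most single members. As the list holds microglia markers too, this sum is not a measure of white blood cells alone. Single genes of the list could differ more, as lyz did. Of 11 kept genes of leukocytes and microglia, 0 had an increase and 1 a decrease of 2-fold or more in pair 1, beside 8.79% and 5.13% of kept probe sets. Their summed signal was 7619 on normal 1, 9086 on normal 2, 8343 on cold 1 and 8297 on cold 2. The sum was highest on normal 2 and cold 1, by a small margin. Both of these arrays were above the others for 2 of the 11 genes, beside 25.7% of kept probe sets. The lysozyme gene lyz had 233, 45.7, 46.4 and 98.7, the invariant chain gene cd74b had 936, 1274, 1802 and 901, and the factor gene spi1b had 174, 121, 93.2 and 92.7. Of the markers of thrombocytes, the fish counterpart of platelets, 2 were kept. Normal 2 and cold 1 were above both others for nfe2, given above, but not for gp1bb, with 101, 95.2, 64.2 and 71.8. The integrin gene itga2b, which marks thrombocytes, was under the filter, with 19.2, 84.9, 55.2 and 37.2, high on normal 2 and cold 1 as the members were. The genes f13a1a.1 and thbs1b of the same list, also under the filter, were likewise higher on normal 2 and cold 1 than on both others. In pair 1 and pair 2, f13a1a.1 was 5.06-fold and 0.245-fold, and thbs1b 2.56-fold and 0.762-fold. Values of genes under the filter rest on low signals. Of the endothelium, the VEGF receptor gene kdrl had 149, 282, 346 and 233, flt4 had 89.9, 98.6, 107 and 125, and tek had 83.5, 105, 86.3 and 104. Of 14 genes of liver and plasma on the array, 3 were kept. They were rbp4, which other tissues also express, with 2074, 1796, 2891 and 5160, ambp with 72.6, 128, 56.2 and 83.2, and vtg2 with 90.0, 78.9, 82.3 and 92.2. Of the loading controls, actb1 had 1977, 4212, 5264 and 3374, gapdh 241, 444, 564 and 617, and sdha 1212, 2093, 2147 and 1999, and the median log2 ratio of the 12 was 0.18 in pair 1 and 0.08 in pair 2. The part of muscle, neuron content or RNA integrity in the values of the members was not tested.

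The genes whose pattern over the 4 arrays was most like the mean of the adult globin genes hbba2 and hbaa1 were sought among 6947 other kept probe sets of single genes. Likeness was the root mean square difference of centred log2 signals from the mean of hbba2 and hbaa1, as hbba1 has no probe set of its own. From this mean, hbba2 and hbaa1 themselves each differed by 0.352, and the shared adult beta probe set by 0.444. A gene close to the mean is therefore not equally close to any single adult globin. The closest was cbx3b, a heterochromatin protein gene (difference 0.038), followed by cox4i1l, a cytochrome oxidase subunit gene (0.057), the transcription factor gene sox11a (0.093), nme6, a nucleoside diphosphate kinase gene (0.114), the enolase gene eno1b (0.125) and sprn, which encodes a prion-like protein (0.131). The median of all candidates was 0.615. For example, cbx3b had signals of 291 on normal 1, 598 on normal 2, 526 on cold 1 and 216 on cold 2. The closest of the other members, cahz, differed by 0.223, epb41b by 0.281, gata1a by 0.308, alas2 by 0.329 and slc4a1a by 0.849. These 6 genes were picked for their likeness, so that likeness is a description only.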

How the data were processed

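The authors hybridized biotin-labelled cRNA of pooled brains to Affymetrix arrays, scanned them, and deposited 1 linear intensity per probe set, computed with MAS5 per the labels (no version or scaling target given). Values of 4 arrays were used, 2 per condition. From the deposited intensity, log2 values were taken without further scaling, since the trimmed means of the arrays ran from 241 to 254. Control probe sets (115) were dropped, and the 9301 of 15502 probe sets whose log2 mean reached the 40th percentile entered limma 3.58.1 in R 4.3.3 (two-class, unpaired, eBayes with a trend), with Benjamini-Hochberg adjustment over all of them and a threshold of 0.05. The study's SAM comparison was not run. The fit was also run on simulated arrays with independent noise. Those lack the likeness between arrays of different labels seen here, so that run does not measure its performance on these data. The number of arrays limits the precision of every value.

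Of 15502 probe sets, 10795 had 1 symbol, 135 several and 4572 none. Symbols came from the platform annotation and were updated through a gene table of assembly GRCz12tu, which held the gene of 10711 and was used for names and neighbours only. List genes with several kept probe sets are given at the brightest of them, and ca2 at its other kept probe set too. Named genes were all members, up to 3 kept genes per list with the largest ratio in either same-numbered pair, and the 6 genes of most similar pattern. The members and lists were chosen with earlier results of these data known. The genes alas1, blvrb, tal1, fech, sptb, itga2b, f13a1a.1 and thbs1b were named after their values were seen. The fit was repeated after quantile normalization or median centring, with 16 added to each signal, with the filter dropped or set at the 60th percentile, with a constant prior variance, with replicate numbers as a block, and without each array.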

Additional observations from a re-analysis of the deposited data

Results flagged for a closer look

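The ratio of cold to normal had opposite directions in the same-numbered pairs at 9 of the 11 member probe sets, as at 69.6% of all kept probe sets. Each pair holds 1 array per condition, so the difference between pairs was not tested. The log2 ratios in pair 1 and pair 2 were 2.10 and -3.28 for slc4a1a, 1.70 and -1.43 for alas2, 1.53 and -1.22 for epb41b, and 1.29 and -1.77 for cahz. They were 1.23 and -1.65 for gata1a, 1.19 and -2.33 for hbba2, and 0.35 and -0.52 for hbaa1. The probe set of ba1l, ba2 and hbba1 had 0.29 and -0.27. The probe set of the embryonic hbbe1 genes had -0.49 and 0.16, the reverse of the others.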

How the results depend on the processing

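No member probe set was called under any of the 12 other fits, and over all probe sets 0 were called in each fit except the one with crossed numbers. With the replicate number as a block (replicate block) 0 were called. Same-numbered arrays deviated in opposite ways from their group means (r = -0.295 across 9301 probe sets). With the numbers crossed, a block added after seeing the data, 1 probe set was called. Without each array in turn, the log2 difference ranged from -2.24 to 1.07 for slc4a1a, from -1.5 to 0.37 for hbba2, from -1.0 to 0.53 for cahz, from -0.67 to 0.93 for alas2, and from -0.64 to 0.94 for epb41b. It ranged from -0.34 to 0.16 for hbaa1, from -0.14 to 0.16 for the shared probe set of hbba1, and from -0.45 to -0.16 for that of hbae1.1. At the first 7 of these 8 it was positive without normal 2 or without cold 2 and negative without normal 1 or without cold 1. Median centring gave -0.0018 for the shared probe set of hbba1, against 0.01. Adding 16 to the signal lowered the log2 ratio of gata1a in pair 1 from 1.23 to 0.88. With 2 pools per condition, differences inside the intervals given above cannot be seen.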
